A study of Mus musculus with 8 samples.

Results

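The 10 genes described here encode enzymes from 3 families of lysine acetyltransferases, though not every enzyme of these, together with noncatalytic subunits of one enzyme module: *Kat2a*, *Kat2b*, *Tada3*, *Sgf29*, *Ep300*, *Crebbp*, *Kat6a*, *Kat6b*, *Kat7* and *Kat8*. The genes were selected by name, with earlier results of these data known. Their rows were read from the count table of each library by Ensembl identifier. All 10 were found among the 55401 genes of the tables, and all 10 were among the 17532 genes that passed the filter on low counts.

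Lysine acetyltransferases move an acetyl group from acetyl-CoA to lysines, mostly of histone tails. KAT2A (GCN5) and KAT2B (PCAF) are mutually exclusive catalytic subunits of a histone acetyltransferase (HAT) module that the coactivator complexes ATAC and SAGA both use. TADA3 is an adaptor of this module, and SGF29 binds methylated lysine 4 of histone H3 through its Tudor domains. EP300 (p300) and CREBBP (CBP) form a separate family and acetylate histone H3 lysine 27 at enhancers and promoters. Of the MYST family, KAT6A and KAT6B act with BRPF scaffolds, and KAT7 (HBO1) acts with BRPF or JADE scaffolds. KAT8 (MOF), of the same family, is the catalytic subunit of the MSL and NSL complexes. ZZZ3 and YEATS2 are ATAC subunits that SAGA lacks, and the study depleted them in order to set RNA abundance beside transcription. The comparison asked here is whether the RNAs of the acetyltransferases themselves differed once either subunit was targeted.

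RNA-seq libraries were made from total RNA of mouse embryonic stem cells (ESCs): 2 labelled Control, 3 Zzz3 auxin and 3 Yeats2 auxin. Per the methods of the study and the protocols in the labels, the cells carried the plant F-box protein Tir1 and were kept in serum with leukemia inhibitory factor and 2 kinase inhibitors, and ZZZ3 or YEATS2 was fused to an auxin-inducible degron (AID), through which auxin at 500 µM for 24 hours directs the protein to degradation. The study describes its estimates for each degron line as a contrast of auxin with the solvent DMSO, but the labels of the 2 controls, which serve both lines, name neither a parental line nor a vehicle. A response to auxin itself and a difference between lines therefore cannot be told apart from the loss of the subunit. No label states separate cultures or a batch, and *P* values therefore measure the spread between these libraries, which may be technical.

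Reads assigned to genes ranged from 14315120 to 27884704 per library. Levels are given as CPM, the count of a gene relative to all assigned reads of its library, after scaling by the trimmed mean of M values. All 8 ESC markers were expressed, at 103 to 2545 CPM. The 5 fibroblast markers did not exceed 1.22 CPM, with *Col3a1* and *Dcn* at a median of 0, and the 4 endoderm markers did not exceed 1.09 CPM. Summed ESC markers overlapped between the groups, at 4847 to 5062 CPM in Control, 4400 to 4896 in Zzz3 auxin and 4310 to 5095 in Yeats2 auxin. The summed primed epiblast markers, mostly *Dnmt3b*, were 135 to 156, 154 to 179 and 199 to 212 in the same order, with *Fgf5* at a median of 0.0193. The summed neuroectoderm markers, mostly *Nes* and *Tubb3*, were 68.8 to 85.3, 92.5 to 118 and 84.1 to 103. Their other 2 genes, *Sox1* and *Pax6*, had medians of 3.23 and 0.489 CPM. The summed mesendoderm markers were 15.0 to 17.8, 12.8 to 21.9 and 11.5 to 14.5, so that Yeats2 auxin lay below Control here and above it for the primed epiblast markers. The part of these differences in the results below was not tested. *Zzz3* was 186 and 182 CPM in Control and 77.5, 96.9 and 112 in Zzz3 auxin (log2 fold change, FC, -0.95, SE 0.14, edgeR adjusted *P* 0.0187), whereas *Yeats2* was 90.9 and 95.8 in Control and 77.3, 103 and 43.7 in Yeats2 auxin (log2 FC -0.32, SE 0.26, adjusted *P* 0.605). Degron cells lose the protein, so neither RNA measures the depletion. The *Zzz3* call was lost when any 1 of 5 libraries was left out (either control, replicate 1 of Zzz3 auxin, or replicate 1 or 3 of Yeats2 auxin), with adjusted *P* of 0.0516 to 0.293, and with the 2 compared groups alone in the fit (0.159), while the log2 FC in these 6 settings was -0.96 to -0.80.

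The upstream sequences of *Kat2a*, *Kat2b* and *Kat8* are shown because they were the members with an unadjusted *P* under 0.05 in both depletions. RefSeq promoter windows on GRCm38.p6, the assembly of the counts, were found for 9 of the 10 genes, and *Kat6a* had no window. *Kat2b*, *Kat6b* and *Kat8* had 2 windows each, of which the first listed was used here. The stretch upstream of the transcript start is printed 5′ to 3′ on the strand of the gene, up to 250 bases and only as far as no GENCODE exon is annotated. Capitals mark matches to searched motifs. The sequences lie at chr11:100712468-100712717 on the minus strand for *Kat2a*, chr17:53566721-53566860 on the plus strand for *Kat2b*, and chr7:127912267-127912515 on the plus strand for *Kat8*.
Kat2a: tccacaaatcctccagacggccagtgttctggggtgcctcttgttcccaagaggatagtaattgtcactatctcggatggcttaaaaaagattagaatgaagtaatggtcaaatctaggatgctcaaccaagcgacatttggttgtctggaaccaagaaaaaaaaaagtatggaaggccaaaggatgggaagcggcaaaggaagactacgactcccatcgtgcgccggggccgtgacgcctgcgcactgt
Kat2b: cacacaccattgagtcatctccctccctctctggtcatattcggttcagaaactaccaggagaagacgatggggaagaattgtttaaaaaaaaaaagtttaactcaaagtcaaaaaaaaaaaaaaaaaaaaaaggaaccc
Kat8: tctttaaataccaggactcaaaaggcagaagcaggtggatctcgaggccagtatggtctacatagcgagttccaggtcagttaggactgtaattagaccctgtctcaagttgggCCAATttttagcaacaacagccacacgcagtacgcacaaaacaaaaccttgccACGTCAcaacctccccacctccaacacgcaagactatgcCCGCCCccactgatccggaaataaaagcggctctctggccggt
Each full window of 250 bases was searched on both strands for 7 motifs. These were the CCAAT box by its own 5 letters, the GC box as GGGCGG, the half-site of the cAMP response element as TGACGT, the TATA box as TATAAA, the core of ETS factor sites as CCGGAAG, the E-box as CACGTG and the core of YY1 sites as AAGATGG. The *Kat8* window held a CCAAT box, a half-site and a GC box, which began 136, 83 and 44 bases upstream of the start, the latter 2 read on the opposite strand. The *Kat2b* window held a CCAAT box on the opposite strand 70 bases upstream, between the GENCODE and the RefSeq start and therefore outside the printed stretch. *Kat2a* held none of the 7. Among the 9 genes, 3 had a CCAAT box (*Kat2b*, *Kat7* and *Kat8*), against 33.8% of all 32817 windows, 4 had a GC box (*Ep300*, *Crebbp*, *Kat6b* and *Kat8*), against 32.7%, and 2 had the half-site (*Sgf29* and *Kat8*), against 6.46%. No window of the 9 held the TATA box (12.4% of all windows), ETS core (6.91%), E-box (6.02%) or YY1 core (4.49%). Base composition varied widely between the genes. GC content was 40.8% for *Kat2b*, 48.8% for *Kat2a* and 51.2% for *Kat8*, near or below the median of 52.4% over all windows, whereas it was 73.2% for *Ep300*, 78.8% for *Kat6b* and 84% for *Crebbp*. CpG dinucleotides numbered 6 for *Kat2b*, 11 for *Kat2a*, 10 for *Kat8* and 44 for *Crebbp*, with a median of 6. These counts depend on the window: the second window of *Kat2b* held none of the 7 motifs, with 48.4% GC and 5 CpG, and that of *Kat8* held a CCAAT box and a GC box but no half-site, with 5 CpG, whereas that of *Kat6b* again held GC boxes and no other motif.

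No member passed the test in either depletion. Of the 17532 genes, 132 were called in Zzz3 auxin at an adjusted *P* under 0.05, which is 0.753%, and 78 in Yeats2 auxin, which is 0.445%, and 0 of the 10 members were among them by edgeR. At an unadjusted *P* under 0.05 there were 4 members in Zzz3 auxin (*Kat2a*, *Kat8* and *Sgf29* positive, *Kat2b* negative), against 21.7% of all genes, and 4 in Yeats2 auxin (*Kat2a*, *Kat8* and *Tada3* positive, *Kat2b* negative), against 14.6%. DESeq2 called 1 member in Zzz3 auxin, *Kat8*, and 0 in Yeats2 auxin. The members' log2 FCs ran from -0.24 to 0.56 with a median of 0.13 in Zzz3 auxin, and from -0.35 to 0.40 with a median of -0.03 in Yeats2 auxin, where the medians over all genes were 0.01 and -0.01. The 95% intervals of the 20 estimates lay between -0.58 and 0.84, so a 2-fold change in either direction was outside the interval of every member.

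**Figure D1:**
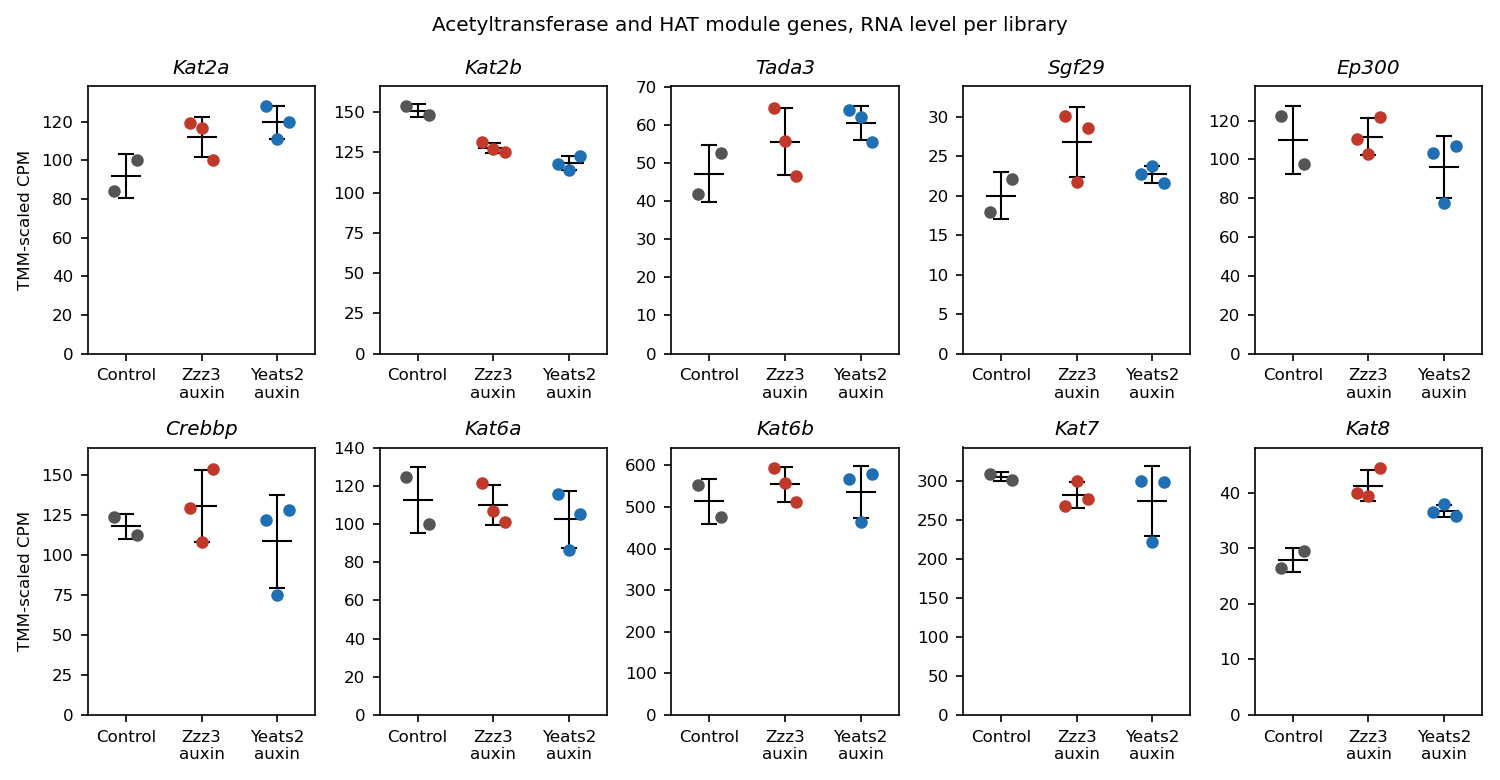
RNA level of the 10 genes in each library, as TMM-scaled CPM on a linear axis from 0, by group (points: libraries, horizontal bar and whiskers: mean ± SD, n = 2 in Control and 3 in each depletion). Both controls lie above every auxin library for *Kat2b* and below every auxin library for *Kat8*, while the groups overlap for *Ep300*, *Crebbp*, *Kat6a* and *Kat6b*.

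**Figure D2:**
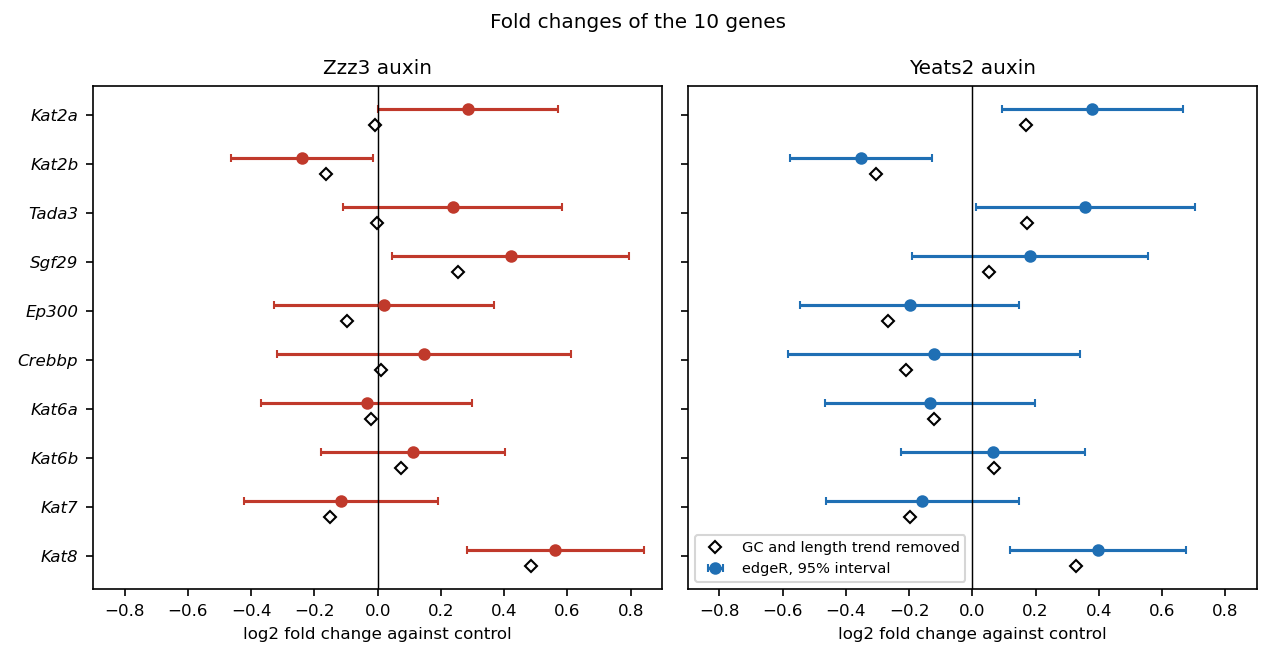
Log2 FC against Control for the 10 genes in Zzz3 auxin (left) and Yeats2 auxin (right). Filled points and bars are edgeR estimates with 95% intervals, open diamonds the estimates after the trend of each library on GC content and exon length was removed. *Kat2a* moves from 0.28 to -0.01 in Zzz3 auxin between both, *Kat8* from 0.56 to 0.48.

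*Kat2a* and *Kat2b*, which encode the alternative catalytic subunits of the HAT module, had estimates of opposite sign in both depletions, although *Kat2a* in Zzz3 auxin was at -0.01 once the GC trend was removed. *Kat2a* (ENSMUSG00000020918, GRCm38 chromosome 11, 100704746 to 100712465, minus strand) was 83.9 and 100.2 CPM in Control, 119, 117 and 100.2 under Zzz3 auxin and 128, 111 and 119.8 under Yeats2 auxin. All auxin libraries lay above both controls, but Zzz3 auxin replicate 3 exceeded Control replicate 2 by less than the rounding. Estimated log2 FCs were 0.28 for Zzz3 auxin (SE 0.13, 95% interval 0.000497 to 0.57, adjusted *P* 0.230 by edgeR) and 0.38 for Yeats2 auxin (SE 0.13, 0.095 to 0.66, adjusted *P* 0.219). *Kat2b* (ENSMUSG00000000708, chromosome 17, 53566861 to 53672720, plus strand) was 154 and 148 CPM in Control, 131, 127 and 125 under Zzz3 auxin and 118, 114 and 123 under Yeats2 auxin. Both controls were above all 6 auxin libraries, and every Yeats2 auxin library was below every Zzz3 auxin library. Its log2 FC was -0.24 in Zzz3 auxin (SE 0.10, -0.46 to -0.01, adjusted *P* 0.207) and -0.35 in Yeats2 auxin (SE 0.10, -0.58 to -0.13, adjusted *P* 0.161). Library groups that do not overlap were common in these data, at 35.8% of all genes in Zzz3 auxin, where 4 members had this, and 40.3% in Yeats2 auxin, where 5 did. The share of all genes with both controls on the same side of all 6 auxin libraries was not determined. No excess is therefore read from this pattern, here or for the genes below.

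The balance between both enzymes was then measured within each library, as the log2 ratio of *Kat2b* to *Kat2a* in CPM per kilobase (kb) of exon. It was 0.39 and 0.08 in Control, -0.35, -0.36 and -0.16 under Zzz3 auxin and -0.61, -0.45 and -0.45 under Yeats2 auxin. *Kat2b* was thus the more abundant RNA of the pair per length in both controls, and *Kat2a* in all 6 auxin libraries, an order that 1 control and 1 Zzz3 auxin library no longer followed once GC and length trends were removed. This order depends on the exon lengths over all isoforms, 4867 bases for *Kat2b* and 3480 for *Kat2a*. In CPM, *Kat2b* was the higher under Zzz3 auxin, at 131, 127 and 125 against 119, 117 and 100.2. Under Yeats2 auxin the order in CPM was mixed, at 118, 114 and 123 against 128, 111 and 119.8. Group means were 0.23 ± 0.22 (SD, n = 2), -0.29 ± 0.11 (n = 3) and -0.50 ± 0.09 (n = 3). The differences from Control, -0.52 and -0.74, each had an exact two-sided permutation *P* of 0.2, the smallest that 3 against 2 libraries allow (0.3 after adjustment over the 6 ratio tests). How often ratios of other gene pairs separate in this way was not determined. The summed level of the pair was 57.5 ± 2.51 CPM per kb in Control, 58.5 ± 3.51 in Zzz3 auxin and 58.7 ± 2.94 in Yeats2 auxin, so the means of the sum were closer together than the SD within any group.

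**Figure D3:**
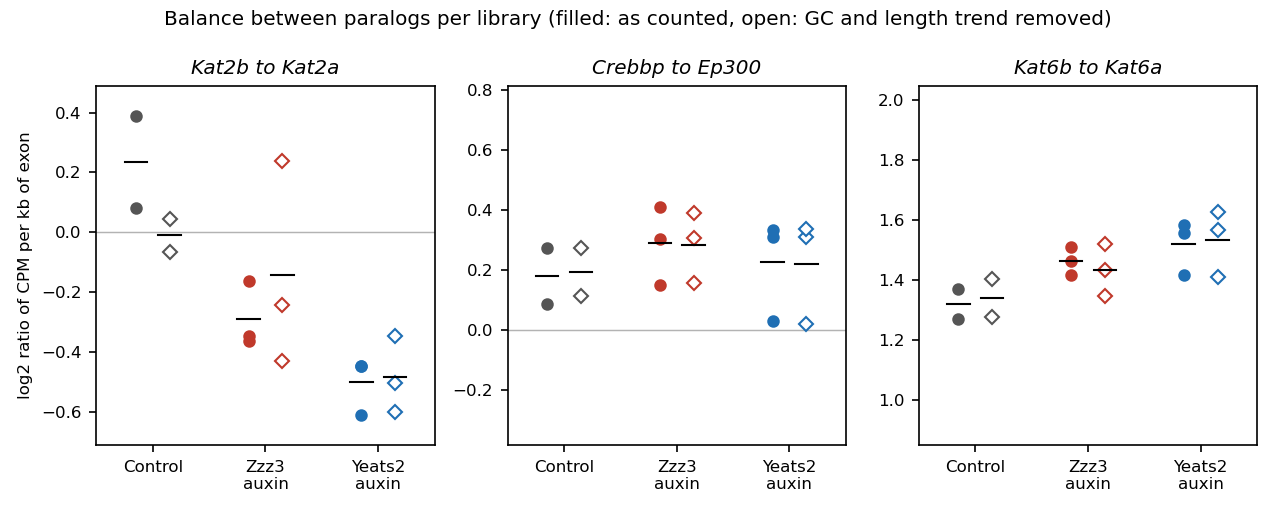
Log2 ratio of CPM per kb of exon between the members of 3 paralog pairs, per library and group, on axes of equal span (filled circles: as counted, open diamonds: after removal of the trend on GC content and exon length, bars: group means). For *Kat2b* to *Kat2a* the controls lie above 0 and the auxin libraries below it as counted, and after removal of the trend Zzz3 auxin spans -0.43 to 0.24. Where 0 falls depends on the exon lengths used.

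The longest annotated transcript of *Kat2a* is 57.4% GC and that of *Kat2b* 46.6%, and the libraries were not alike in their GC dependence. Between the GC-richest and the GC-poorest 25% of genes, the median log2 deviation from the mean over libraries differed by -0.59 in the first control and by 0.43 in the third Zzz3 auxin library, and by -0.075 to 0.15 in the remaining 6. With each library's trend removed, *Kat2a* had log2 FCs of -0.01 under Zzz3 auxin and 0.17 under Yeats2 auxin, and *Kat2b* of -0.16 and -0.31. The difference in log2 ratio became -0.13 in Zzz3 auxin, with overlapping libraries (exact permutation *P* 0.8), and -0.47 in Yeats2 auxin, without overlap (exact permutation *P* 0.2).

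*Tada3* and *Sgf29*, the adaptor and the reader subunit of the same module, had positive estimates in both depletions, except for *Tada3* in Zzz3 auxin once the GC trend was removed. *Tada3* (ENSMUSG00000048930, chromosome 6, 113366025 to 113377883, minus strand) was 42.0 and 52.6 CPM in Control, 64.4, 55.8 and 46.7 under Zzz3 auxin and 64.1, 62.1 and 55.6 under Yeats2 auxin. Yeats2 auxin lay above both controls, while Zzz3 auxin overlapped them. The log2 FCs were 0.24 (SE 0.16, edgeR adjusted *P* 0.409) and 0.36 (SE 0.16, adjusted *P* 0.325), and -0.0033 and 0.17 with the GC and length trends removed. *Sgf29* (ENSMUSG00000030714, chromosome 7, 126649309 to 126672925, plus strand) was 17.9 and 22.1 CPM in Control, 30.1, 21.8 and 28.6 under Zzz3 auxin and 22.7, 23.8 and 21.6 under Yeats2 auxin, so that 1 library of each depletion fell between the controls. Its log2 FCs were 0.42 (SE 0.17, adjusted *P* 0.186) and 0.18 (SE 0.17, adjusted *P* 0.654), and 0.26 and 0.054 with both trends removed. With a library left out they ran from 0.27 to 0.58 and from 0.040 to 0.35. *Sgf29* was the member with the fewest reads, 363 to 785 per library, and 169 of its 1802 exonic bases overlap an antisense transcript (*2510046G10Rik*) and 61 overlap *Sult1a1*, both on the other strand. Whether counting used strand is not given in the sources used here, so reads from these stretches could not be assigned to one strand.

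The p300 and CBP genes did not separate from Control in either depletion. *Ep300* (ENSMUSG00000055024, chromosome 15, 81585351 to 81652077, plus strand) was 122 and 97.8 CPM in Control, 110, 103 and 122 under Zzz3 auxin and 103, 77.6 and 107 under Yeats2 auxin, with log2 FCs of 0.02 (SE 0.16, edgeR adjusted *P* 0.963) and -0.20 (SE 0.16, adjusted *P* 0.592). *Crebbp* (ENSMUSG00000022521, chromosome 16, 4081328 to 4213997, minus strand) was 123 and 112 CPM in Control, 129, 108 and 154 under Zzz3 auxin and 122, 75.1 and 128 under Yeats2 auxin. Its log2 FCs were 0.15 (SE 0.21, adjusted *P* 0.730) and -0.12 (SE 0.21, adjusted *P* 0.822), with intervals of -0.32 to 0.61 and -0.58 to 0.34, the widest among the members. Yeats2 auxin replicate 2 was the lowest of the 8 libraries for both genes, and without it the *Crebbp* estimate in Yeats2 auxin was 0.09. The same library was the lowest of the 8 for *Kat6a*, *Kat6b* and *Kat7* as well. The log2 ratio of *Crebbp* to *Ep300* per kb was 0.18 ± 0.13 in Control, 0.29 ± 0.13 in Zzz3 auxin and 0.23 ± 0.17 under Yeats2 auxin, and the groups overlapped (exact permutation *P* 0.4 and 0.8).

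Among the MYST genes of this set, *Kat6a*, *Kat6b* and *Kat7* had estimates within 0.16 of 0. *Kat6a* (ENSMUSG00000031540, chromosome 8, 22859535 to 22943259, plus strand) was 125 and 100.2 CPM in Control, 122, 107 and 101 under Zzz3 auxin and 116, 86.2 and 105 under Yeats2 auxin (log2 FC -0.03 and -0.13, SE 0.15 each, edgeR adjusted *P* 0.922 and 0.719). *Kat6b* (ENSMUSG00000021767, chromosome 14, 21481434 to 21672478, plus strand) was 552 and 475 CPM in Control, 595, 557 and 511 under Zzz3 auxin and 568, 465 and 578 under Yeats2 auxin (log2 FC 0.11 and 0.06, SE 0.13 each, adjusted *P* 0.666 and 0.852). Both genes overlapped Control in both depletions. The log2 ratio of *Kat6b* to *Kat6a* per kb was 1.27 and 1.37 in Control, 1.42, 1.51 and 1.46 under Zzz3 auxin and 1.42, 1.56 and 1.58 under Yeats2 auxin. As counted, these ratios did not overlap Control. Groups of single genes did not overlap for 35.8% of all genes in Zzz3 auxin and 40.3% in Yeats2 auxin. The share among ratios of other gene pairs was not determined, so no excess is read from it. The differences of this ratio from Control were 0.14 and 0.20, with an exact permutation *P* of 0.2 each, again the smallest possible, and 0.09 (overlapping) and 0.19 (not overlapping) without the GC trend. *Kat7* (ENSMUSG00000038909, chromosome 11, 95274259 to 95310246, minus strand) was 309.9 and 302 CPM in Control, 269, 301 and 278 under Zzz3 auxin and 301, 223 and 299.9 under Yeats2 auxin. Both controls lay above all auxin libraries, although 2 of the 6 came within 2 CPM of the lower control. The log2 FCs of *Kat7* were -0.12 (SE 0.14, edgeR adjusted *P* 0.668) and -0.16 (SE 0.14, adjusted *P* 0.633). With a library left out, the estimate in Yeats2 auxin ran from -0.23 to -0.03.

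*Kat8* had the largest estimate of the 10 in both depletions. The gene (ENSMUSG00000030801, chromosome 7, 127912516 to 127925837, plus strand) was 26.3 and 29.4 CPM in Control, 39.9, 39.3 and 44.4 under Zzz3 auxin and 36.4, 37.9 and 35.8 under Yeats2 auxin. The 3 groups did not overlap: every Zzz3 auxin library was above every Yeats2 auxin library, and those were above both controls. Against Control alone, groups did not overlap for 35.8% of all genes in Zzz3 auxin and 40.3% in Yeats2 auxin. The share with all 3 groups apart was not determined, so no excess is read from it. Estimated log2 FCs were 0.56 for Zzz3 auxin (SE 0.13, 95% interval 0.28 to 0.84, 1.48-fold, unadjusted *P* 9.5e-04, adjusted *P* 0.0655 by edgeR) and 0.40 for Yeats2 auxin (SE 0.13, 0.12 to 0.67, 1.32-fold, adjusted *P* 0.192). The GC content of its longest annotated transcript is 52.1%, and removal of the trend gave 0.48 (adjusted *P* 0.0593) and 0.33 (adjusted *P* 0.209, with 0.0871 to 0.850 over all alternatives in Yeats2 auxin). Whether *Kat8* was called in Zzz3 auxin depended on the method: the adjusted *P* was 0.00457 by DESeq2, 0.0209 without a filter on low counts, 0.0420 when the second Zzz3 auxin library was left out and 0.525 when the first control was, the highest of 16 alternatives, under which the log2 FC was 0.48 to 0.65. Of its 2891 exonic bases, 122 overlap *Prss8* on the other strand.

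In the pooled comparison of the 6 auxin libraries with Control, 221 genes (1.26%) and 0 members were called by edgeR, with 3 members at an unadjusted *P* under 0.05 (*Kat2a*, *Kat2b* and *Kat8*) against 20.8% of all genes. *Kat8* came nearest, with an estimate of 0.48 (SE 0.12, adjusted *P* 0.0621 by edgeR and 0.00689 by DESeq2), followed by *Kat2b* at -0.30 (SE 0.09, adjusted *P* 0.111) and *Kat2a* at 0.33 (SE 0.12, adjusted *P* 0.150). Over 15 alternatives the adjusted *P* of *Kat8* was 0.00689 to 0.609, and it was 0.0441 with the third Zzz3 auxin library left out. Of the remaining 7 genes, *Tada3* (0.30) and *Sgf29* (0.30) had adjusted *P* of 0.265 and 0.290, and the other 5 lay between -0.14 (*Kat7*) and 0.09 (*Kat6b*).

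Both depletions were also compared directly. No gene of 17532 (0%) was called by edgeR, 3 were called by DESeq2, and 1095 genes (6.25%) but 0 members had an unadjusted *P* under 0.05. The log2 FCs of Yeats2 auxin against Zzz3 auxin were -0.27 for *Crebbp* (95% interval -0.68 to 0.15), -0.24 for *Sgf29* (-0.57 to 0.09), -0.22 for *Ep300* (-0.53 to 0.09), -0.17 for *Kat8* (-0.41 to 0.08), -0.11 for *Kat2b* (-0.32 to 0.09) and 0.09 for *Kat2a* (-0.16 to 0.35). They were 0.12 for *Tada3* (-0.19 to 0.43), -0.10 for *Kat6a* (-0.40 to 0.20), -0.05 for *Kat6b* (-0.31 to 0.21) and -0.04 for *Kat7* (-0.32 to 0.23). *Kat2b* and *Kat8* were lower in every Yeats2 auxin library than in every Zzz3 auxin library, which 5.82% of all genes were. That share counts the lower direction only, unlike the shares given for the comparisons with Control. The share in either direction was not determined, so no excess among the members is read from it. These intervals still allow differences between the depletions of up to 0.68 on the log2 scale.

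Relative abundance among the 10 was compared per kb of annotated exon, over all isoforms of a gene. In Control, *Kat7* was highest at 55.3 ± 0.97 CPM per kb (SD, n = 2), followed by *Kat2b* at 31.0 ± 0.79, *Kat6b* at 30.5 ± 3.23 and *Kat2a* at 26.4 ± 3.30. Below these came *Kat6a* at 12.3 ± 1.90, *Tada3* at 12.2 ± 1.93, *Sgf29* at 11.1 ± 1.64 and *Kat8* at 9.65 ± 0.76, then *Crebbp* at 8.70 ± 0.58 and *Ep300* at 7.72 ± 1.22, and, apart from *Kat7* to *Kat2b* and *Kat2a* to *Kat6a*, no neighbours in this order differed by more than their SDs added together. In Yeats2 auxin the second place was held by *Kat2a*, at 34.4 ± 2.46 CPM per kb (n = 3), which did not differ beyond this spread from *Kat6b* at 31.9 ± 3.73, and *Kat2b* stood at 24.3 ± 0.91. *Kat8* stood at 14.3 ± 0.97 in Zzz3 auxin and 12.7 ± 0.37 in Yeats2 auxin. Pseudogene copies took few reads: *Kat2b-ps* had 0.0669 to 0.384 CPM per library, *Kat6b-ps1* had 0 and *Kat6b-ps2* at most 0.0669.

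The genes that work with these enzymes were examined as 4 lists, and 0 genes were called in any of them by edgeR in either depletion. Their counts at an unadjusted *P* under 0.05 stand beside 21.7% of all genes in Zzz3 auxin and 14.6% in Yeats2 auxin. Of 3 HAT module partners, 0 in Zzz3 auxin and 1 in Yeats2 auxin had an unadjusted *P* under 0.05, with list medians of -0.09 and -0.10. *Kat14*, the second acetyltransferase of ATAC, was 54.8 and 61.2 CPM in Control, 84.7, 74.3 and 50.9 under Zzz3 auxin and 76.1, 86.0 and 78.9 under Yeats2 auxin (log2 FC 0.27 and 0.47, edgeR adjusted *P* 0.412 and 0.269, with 0.0490 to 0.894 over the alternatives for the latter), and the former was 0.14 with GC and length trends removed. *Tada2b*, which takes the place of TADA2A in SAGA, had log2 FCs of -0.25 and -0.10. Among 9 partners of KAT6 and KAT7, 2 in Zzz3 auxin and 0 in Yeats2 auxin had an unadjusted *P* under 0.05: *Brpf1*, the scaffold, at 0.31 (adjusted *P* 0.185, and 0.055 with adjusted *P* 0.846 once GC and length trends were removed) and *Ing5*, a reader of methylated histone H3, at -0.27 (adjusted *P* 0.210). The median of the list was -0.0038 in Zzz3 auxin and -0.01 in Yeats2 auxin.

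Among 11 partners of KAT8, the counts were 2 and 0, with medians of 0.02 and -0.00058. *Msl2*, a subunit of the MSL complex, was at -0.49 (edgeR adjusted *P* 0.129) and *Mcrs1*, a subunit of the NSL complex, at 0.83 (adjusted *P* 0.196) in Zzz3 auxin, and both were called without a filter on low counts (adjusted *P* 0.0271 and 0.00210, with highest values over the alternatives of 0.749 and 0.783). Both estimates moved with single libraries: that of *Msl2* was -0.25 without Control replicate 1 and -0.70 without Control replicate 2, and that of *Mcrs1* was 0.41 and 1.45, and 0.50 without Zzz3 auxin replicate 3. With GC and length trends removed they were -0.29 and 0.53. These partner medians lie near those of all genes, 0.01 and -0.01. Among 15 other acetyltransferases, 4 in each depletion had an unadjusted *P* under 0.05, 3 of them negative under Zzz3 auxin and 4 under Yeats2 auxin, and the medians were -0.10 and -0.12. In Zzz3 auxin this count is near the share of all genes, 21.7%. In Yeats2 auxin that share was 14.6%. The share of all genes that were negative at this threshold was not determined, and no excess is read from 4 genes. *Hat1*, named below for its *P* in Zzz3 auxin, was not among the 4 in Yeats2 auxin (edgeR unadjusted *P* 0.0919). *Taf1*, a TFIID subunit, was 369 and 333 CPM in Control, 275, 298 and 236 under Zzz3 auxin and 289, 286 and 294 under Yeats2 auxin (log2 FC -0.38 and -0.28, adjusted *P* 0.116 and 0.322). *Hat1*, which acetylates newly made histone H4, was 825 and 776, then 568, 706 and 576, then 638, 718 and 691 CPM (log2 FC -0.38 and -0.23, adjusted *P* 0.126 and 0.416, with 0.0493 to 0.624 over the alternatives in Zzz3 auxin, the lowest without its second library). Controls lay above all auxin libraries for both genes, a pattern whose share among all genes was not determined. With GC and length trends removed the log2 FCs were -0.25 and -0.16 for *Taf1* and -0.22 and -0.11 for *Hat1*.

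**Figure D4:**
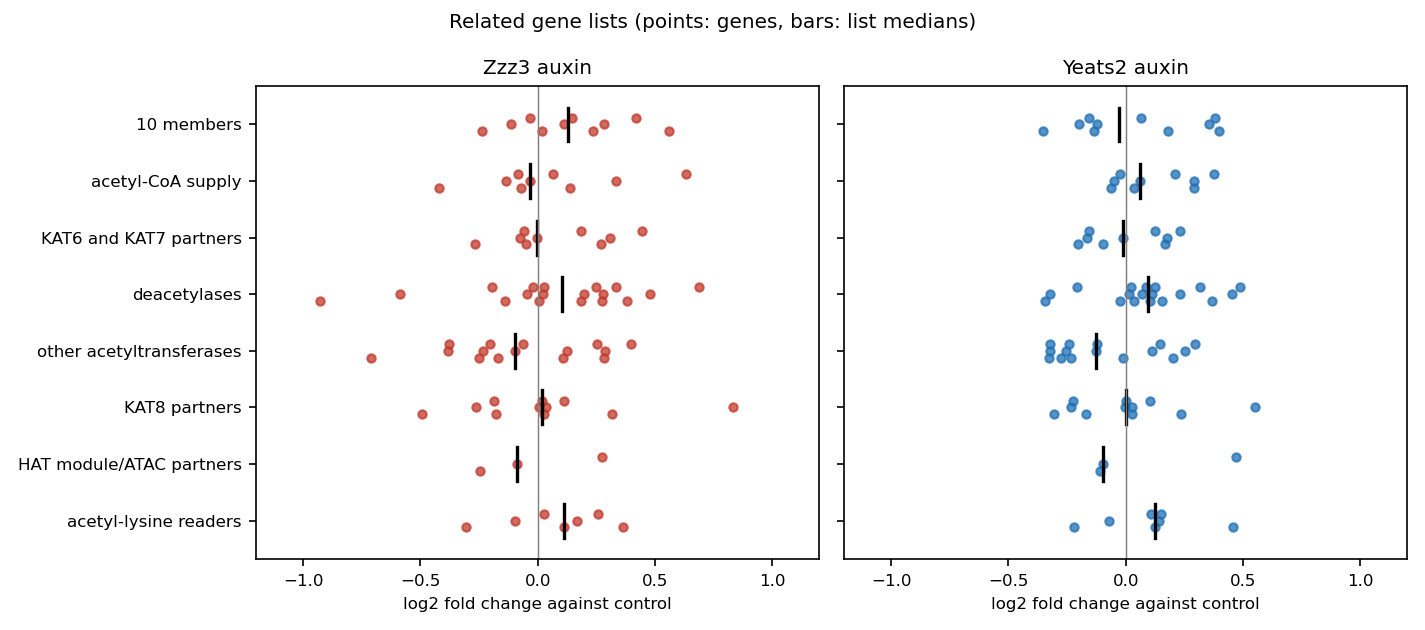
Log2 FC against Control of the 10 members and of 7 lists of related genes in Zzz3 auxin (left) and Yeats2 auxin (right), with 1 point per gene and a black bar at the list median. Medians lie between -0.10 and 0.13 in Zzz3 auxin and between -0.12 and 0.13 in Yeats2 auxin, and no point stands for a called gene.

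Finally, the genes with the most similar pattern over the 8 libraries were read out, by the root mean square difference of centred log2 CPM among the 10432 genes that averaged 5 CPM or more and had no library at 0. For *Kat2a* these were *Gatad2a* (0.053), *Ap1b1* (0.063) and *Nid2* (0.065), where *Kat2a* itself varied by 0.18 about its mean. For *Kat2b*, with 0.14, they were *Pus3* (0.036), *Ggps1* (0.042) and *Zfp799* (0.043). For *Kat8*, with 0.23, they were *Scfd2* (0.048), *Leo1* (0.052) and *Qsox1* (0.062). The nearest genes were *Ap1b1* for *Tada3* (0.049), *Agrn* for *Sgf29* (0.047), *Aak1* for *Ep300* (0.053), *Nup214* for *Crebbp* (0.055), *Cecr2* for *Kat6a* (0.055), *Ncor1* for *Kat6b* (0.025) and *Nr5a2* for *Kat7* (0.042). *Ap1b1* stood among the 3 nearest of both *Kat2a* and *Tada3*. No other gene was listed for 2 members, and none of the 10 was among the 3 nearest of another. These are descriptions of 8 libraries that share controls and GC trends. In bulk RNA, less RNA per cell and fewer cells of a type cannot be told apart for any of these genes.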

How the data were processed

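RNA-seq of 8 libraries was analysed from the raw gene counts that the authors deposited. According to the study, the authors trimmed reads, removed ribosomal RNA reads, aligned to mm10 with STAR 2.5.3a and counted uniquely aligned reads with HTSeq 0.6.1p1 in union mode on Ensembl annotation. The labels name polyA RNA, whereas their protocol describes ribodepletion. The 5 tallies of unassigned reads were left out: alignments that were not unique made up 45.6% to 51.7% of each table, reads outside features 14.4% to 19.9% and ambiguous reads 0.51% to 0.88%. GENCODE vM21 (GRCm38) gave symbols and positions for 55141 of 55401 identifiers. Genes were filtered by filterByExpr, scaled by TMM and fitted over all 8 libraries with edgeR 4.0.16 (R 4.3.3, robust quasi-likelihood test, two-sided), with Benjamini-Hochberg adjustment over 17532 genes and calls at an adjusted *P* under 0.05. DESeq2 1.42.0 was an alternative, besides size factors, filters, protein-coding genes alone, the compared groups alone, the replicate number as a block, removal of GC and length trends (lowess span 0.3), and leaving out each library. GC content was that of the longest annotated transcript of a gene. For the paralog ratios the trend removal was added after the data were seen. Ratios were tested by exact permutation in scipy 1.17.1. The script was tested on simulated counts. Within groups, no 2 libraries had identical counts. Chi-square per gene within groups was 3.55 for Yeats2 auxin replicates 1 and 3, which were the most alike, and 19.7 to 47.9 for all other pairs. This check cannot tell whether those 2 libraries came from separate cultures, and the SDs and *P* values of Yeats2 auxin carry that limit. Members and lists were chosen with earlier results of these data known. All members are named, and of each related list the called genes or, where there were none, the 2 with the smallest unadjusted *P* in either depletion. Genes outside this rule are named only as markers, overlapping genes, pseudogene copies, the targeted *Zzz3* and *Yeats2*, or the genes nearest in pattern. Counting error was small at 363 to 15497 reads per member, and the 2 controls limit precision.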

Additional observations from a re-analysis of the deposited data

How the results depend on the processing

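Over 630 log2 FCs of members under alternatives, 598 kept their direction and their side of the threshold, 6 passed the threshold and 26 changed sign. All 6 were *Kat8*: in Zzz3 auxin and in both auxin groups against Control, members called numbered 1 instead of 0 with DESeq2 and with no filter on low counts, and 0 to 1 with each library left out. All genes called in Zzz3 auxin were 132, against 1114 by DESeq2, 1542 without a filter, 42 with the replicate block and 0 with only the compared groups, and 0 to 841 with a library left out. In Yeats2 auxin they were 78, against 434, 553, 32 and 454, 132 with GC and length trends removed, and 0 to 217. Directly compared they were 0, against 3 by DESeq2, 117 without a filter and 0 to 1, and pooled 221, against 1038, 1324, 107 with the block and 0 to 674.

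Replicate numbers did not pair the libraries: correlations of deviations from the group means across genes were -0.34 to 0.31 for equal numbers. With the replicate block 0 members were called in any comparison, with smallest adjusted *P* of 0.132 in Zzz3 auxin, 0.262 in Yeats2 auxin, 0.727 directly and 0.145 pooled. Under the block, signs changed for *Ep300* (-0.047) and *Crebbp* (-0.00039) in Zzz3 auxin, *Zzz3* (-0.039) and *Tada2b* (0.0022) in Yeats2 auxin, and *Crebbp* (-0.14) pooled.

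With GC and length trends removed, signs changed for *Kat2a* (-0.0091), *Tada3* (-0.0033), *Ep300* (-0.10) and *Mllt1* (-0.029) in Zzz3 auxin, *Mllt1* (-0.11) in Yeats2 auxin, and *Crebbp* (-0.10), *Yeats2* (-0.021) and *Mllt1* (-0.068) pooled. With a library left out, estimates near 0 crossed it: in Zzz3 auxin *Ep300* (-0.13 to 0.19) and *Kat6a* (-0.18 to 0.13), in Yeats2 auxin *Crebbp* (-0.26 to 0.086), *Kat6a* (-0.28 to 0.032), *Kat6b* (-0.037 to 0.18), *Tada2b* (-0.22 to 0.038), *Mllt1* (-0.093 to 0.39) and the *Crebbp* to *Ep300* ratio (-0.049 to 0.14), directly *Kat6a* (-0.20 to 0.0097), *Kat6b* (-0.10 to 0.047), *Kat7* (-0.11 to 0.088), *Tada2b* (-0.031 to 0.39) and *Mcrs1* (-0.46 to 0.066), and pooled *Ep300* (-0.24 to 0.080), *Crebbp* (-0.056 to 0.12), *Kat6a* (-0.23 to 0.080), *Kat6b* (-0.014 to 0.20) and *Yeats2* (-0.10 to 0.19). The cause was not tested.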

Other observations

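Genes that remove, supply or read acetyl groups were examined in the same fit, and 0 were called by edgeR in either depletion. Of 18 deacetylases, 3 in Zzz3 auxin and 2 in Yeats2 auxin had an unadjusted *P* under 0.05, against 21.7% and 14.6% of all genes, so the list did not exceed the share of all genes in either, and the medians of the log2 FC were 0.10 in both. *Sirt1*, a NAD-dependent deacetylase, was 233 and 203 CPM in Control, 128, 175 and 132 under Zzz3 auxin and 175, 161 and 178 under Yeats2 auxin, below both controls in all 6 auxin libraries. The share of all genes with such a separation was not determined. Its log2 FC was -0.58 in Zzz3 auxin (SE 0.14, edgeR adjusted *P* 0.0747, DESeq2 0.0148, with 0.00301 to 0.542 over all alternatives) and -0.34 in Yeats2 auxin (SE 0.14, adjusted *P* 0.299). It was -0.44 and -0.24 with GC and length trends removed. *Hdac6*, a mostly cytoplasmic deacetylase of tubulin, was 102.3 and 122 CPM in Control, 136, 145 and 157 under Zzz3 auxin and 138, 149.7 and 132 under Yeats2 auxin (log2 FC 0.38 and 0.32, adjusted *P* 0.121 and 0.267).

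Of 9 genes of acetyl-CoA supply, 2 in each depletion had an unadjusted *P* under 0.05, near the shares of all genes, and the medians were -0.03 and 0.06. *Slc25a1*, the mitochondrial citrate carrier, was 55.6 and 67.8 CPM in Control, 108, 79.1 and 101 under Zzz3 auxin and 79.6, 72.4 and 74.3 under Yeats2 auxin. Its log2 FC was 0.63 in Zzz3 auxin (SE 0.15, edgeR adjusted *P* 0.0711, DESeq2 0.00775, with 0.00163 to 0.544 over all alternatives) and 0.29 in Yeats2 auxin (adjusted *P* 0.391), and with GC and length trends removed it was 0.27 and 0.06. *Acly*, which cleaves citrate to acetyl-CoA in the cytosol, was 518 and 619 CPM in Control, 752, 708 and 691 under Zzz3 auxin and 757, 741 and 719 under Yeats2 auxin (log2 FC 0.33 and 0.38, adjusted *P* 0.137 and 0.175). All 6 auxin libraries lay above both controls for both genes, and the share of all genes with this pattern was not determined. Of 7 acetyl-lysine readers, 0 had an unadjusted *P* under 0.05 in either depletion, and the medians were 0.11 and 0.13. *Brd2*, a BET bromodomain protein, had log2 FCs of -0.09 and -0.22, and of -0.46 in both depletions with GC and length trends removed (edgeR adjusted *P* 0.0750 and 0.0993). In the pooled comparison it was then called, at -0.46 (edgeR adjusted *P* 0.0397, against -0.16 and 0.369 as counted). *Mllt1*, a YEATS domain reader, had log2 FCs of 0.36 and 0.13, and of -0.03 and -0.11 with these trends removed.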
